A study of Mus musculus with 42 samples.

Results

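Fkbp7, Psen2, Nipal2, Atp6v0d2, Mal, Mmrn2, Serping1 and Clic5 are 8 genes whose RNA in the low-flow carotid intima differed at 7 d between mice with and without endothelial Rbfox2, and which the study then took to quantitative PCR. They were chosen by name, as 8 of the 21674 genes of the deposited expression table. Since low-flow libraries at 7 d chose them, their values in those libraries are given here only as a description. Tests were made in the libraries that played no part in the choice: flow and sham arteries at 48 hr, arteries of mice depleted of platelets, granulocytes or macrophages, and high-flow arteries at 7 d. The high-flow arteries at 7 d are contralateral arteries of ligated mice, so they may come from the mice whose low-flow arteries chose the genes. The cultured endothelial cells had 1 library each and are described by their values.

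Rbfox2 is an RNA-binding protein that binds the hexamer UGCAUG in introns and regulates the inclusion of nearby exons in endothelium, muscle, neurons and other tissues. Endothelial cells of arteries sense the drag of flowing blood, and low or disturbed flow moves them from a quiescent to an inflamed state that recruits monocytes, neutrophils and platelets to the vessel wall. The 8 genes have unlike functions. Fkbp7 encodes a prolyl isomerase of the endoplasmic reticulum. Psen2 encodes presenilin 2, a catalytic subunit of gamma-secretase, the protease that releases the Notch intracellular domain. Nipal2 encodes a membrane protein of the NIPA family. Mal encodes a small membrane proteolipid of lipid rafts and vesicle traffic, and Clic5 a chloride intracellular channel protein that is found with ezrin at actin-rich membrane. Mmrn2 encodes multimerin-2, a glycoprotein of the endothelial extracellular matrix. Serping1 encodes C1 inhibitor, which blocks the first proteases of the complement cascade. Atp6v0d2 encodes a d subunit of the proton-pumping V-ATPase and is best known from osteoclasts and macrophages.

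The mice at 48 hr were male C57BL/6J, 6 to 7 weeks old. Low flow was made by partial ligation of the left carotid artery. High flow was that of the contralateral carotid artery of the same animals, and sham arteries were dissected with no vessel tied. Untreated mice gave 3 pools of RNA for each of low flow, high flow and sham. Treated mice gave 2 pools for each of low flow with control IgG, with PBS liposomes, with the platelet-depleting antibody anti-GPIba, with the granulocyte-depleting antibody anti-Gr1 and with clodronate liposomes, which deplete macrophages, and 2 for each of high flow with IgG and with PBS liposomes. Each pool held the intimal RNA, flushed out with Trizol, of several arteries, so the tests measure the spread between pools. At 7 d the mice were 2 to 7 months old, of both sexes, and all carried Rosa26-mTmG and Rbfox2 lox/lox. Rbfox2 EC-KO mice also carried Cdh5(PAC)-CreERT2, a tamoxifen-inducible Cre of endothelial cells, and littermate controls carried no Cre, so the presence of Cre and the loss of Rbfox2 cannot be told apart. Both genotypes had 3 libraries from low flow and 2 from high flow. The cultures were a line of aortic endothelial cells immortalized with TetOn-SV40 T antigen, kept for 48 hr alone or with 10% plasma, platelets plus macrophages, or all of these, and primary aortic endothelial cells of control and EC-KO mice sorted on CD31 and Icam2 after 7 d, or of Cdh5(PAC)-CreERT2 reporter mice sorted on eGFP after 5 d.

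The untreated libraries held 4064477 to 6794904 expected counts, the treated ones with 150 bp reads 12286104 to 19035957 and the 7 d ones 10318685 to 18633538. Levels are given as FPKM, in which a gene's count is divided by its effective length and by the library's total. The untreated columns are marked as 100 bp reads, as is a further pair of treated low-flow pools described apart. The other treated and the 7 d ones are marked as 150 bp. The names of the read files in the table's header put the libraries in 4 sequencing sets. Levels are therefore set against each other within one of these collections. The endothelial marker list (11 genes) summed to 2380 to 5930 FPKM in the carotid libraries and none of these markers was at 0 in any of them. In the untreated low-flow pools a and b, Actb alone took 10.6% and 10.1% of counts, against 3.74% in low-flow pool c and 0.516% to 1.5% in the high-flow and sham pools. Scaling by total counts instead of by TMM, the scaling used here, would shift every untreated low against high log2 fold change by -0.71 and every low against sham change by -0.76. Both comparisons are therefore also given without pools a and b, a setting chosen after the data were seen. In bulk RNA of this kind, fewer cells of a type and less RNA per cell cannot be told apart. Where groups are said not to overlap, the share of all genes whose groups separate likewise was not counted. Such statements describe the libraries and are not evidence about a gene.

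The genes lie on 6 chromosomes. In mm9, Fkbp7 is at chr2:76501101-76511142 on the minus strand, Serping1 at chr2:84605544-84615601 (minus), Mal at chr2:127458962-127482431 (minus), Psen2 at chr1:182157135-182193569 (minus) and Atp6v0d2 at chr4:19803988-19849752 (minus). Mmrn2 is at chr14:35188690-35217473 on the plus strand, Nipal2 at chr15:34502554-34608461 (minus) and Clic5 at chr17:44325521-44417117 (plus). The Rbfox2 hexamer, written TGCATG in DNA and searched on the transcribed strand only, was looked for in the 200 intronic bases on either side of their internal splice sites. It was present in 3 of 92 such flanks, while 7.57% of 281698 flanks over all protein-coding genes held it. The 3 matches are printed because they show where the deleted factor's hexamer lies near exons of these genes, with the hexamer in capitals. They lie in introns, upstream of exon 6 of Atp6v0d2 (chr4:19808628-19808687), downstream of exon 10 of Nipal2 (chr15:34507125-34507181) and upstream of exon 7 of Serping1 (chr2:84607738-84607797), each read on the minus strand of mm9.
Atp6v0d2: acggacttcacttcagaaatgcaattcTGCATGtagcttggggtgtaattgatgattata
Nipal2: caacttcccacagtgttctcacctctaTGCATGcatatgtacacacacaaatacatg
Serping1: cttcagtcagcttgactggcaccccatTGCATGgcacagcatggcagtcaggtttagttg
The 6 flanks of Fkbp7 held no such hexamer, nor did those of Psen2, Mal, Mmrn2 or Clic5. Of 18718 genes, 53.0% had the hexamer in at least 1 flank. A match is a description of the letters, and none says only that the hexamer is not in these windows.

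The question put to the high-flow arteries at 7 d was whether the genes differed between EC-KO and control without low flow, in libraries that had not been used to choose them. Fkbp7 fell and the other 7 genes did not pass the test. Rbfox2 itself, the targeted gene, was at 3.66 and 3.84 FPKM in the 2 control libraries and at 0.791 and 1.05 in the 2 EC-KO libraries. This is a log2 fold change of -2.07 ± 0.28 (SE), which did not pass edgeR's quasi-likelihood test (adjusted p = 0.301). Rbfox2 thus stood lower in both EC-KO libraries than in both controls.

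Fkbp7 was at 80.4 and 74.1 FPKM in the 2 control high-flow libraries and at 6.21 and 6.27 in the 2 EC-KO libraries. The groups did not overlap, with 893 and 629 counts in the controls against 74 and 85 in the EC-KO. The fitted log2 fold change was -3.68 ± 0.20 (95% interval -4.15 to -3.20), a level 12.8-fold lower in EC-KO (adjusted p = 0.00758). Fkbp7 was the only gene of 12450 that passed the threshold, which is 0.00803% of those tested, and the next smallest adjusted p was 0.0796. At an unadjusted p under 0.05 there were 900 genes, and DESeq2 called 110. Fkbp7 was first by p but only 134th by the size of the fold change. The same gene was called without any 1 of the 4 libraries. Each such fit has 1 library in a group and takes the spread from the other group, so it is a weak check. In these fits the log2 fold change ranged from -3.72 to -3.63 and the adjusted p from 0.000178 to 0.0276.

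The gene next to Fkbp7, Plekha3, runs the other way from a start 2195 bases off, and was looked at after the value of Fkbp7 was known. Plekha3, which encodes a phosphoinositide-binding protein of the Golgi, was at 38.3 and 41.3 FPKM in the control high-flow libraries and at 29.5 and 38.5 in the EC-KO ones. Its log2 fold change was -0.27 ± 0.19 (adjusted p = 0.776). The 13 other FKBP prolyl isomerases tested had no called gene either, as was so for all genes but Fkbp7, and their median log2 fold change was -0.12 against 0.01 over all genes.

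The remaining 7 genes had log2 fold changes between -0.12 and 0.87 and adjusted p from 0.715 to 0.987 in high-flow EC-KO against control. Psen2 was at 22.3 and 22.9 FPKM in control and 30.4 and 28.2 in EC-KO, so the groups did not overlap, but its change of 0.32 ± 0.16 did not pass (interval -0.05 to 0.70). Mmrn2 was at 355 and 389 FPKM in control and 451 and 439 in EC-KO, with a change of 0.21 ± 0.13. Serping1 was at 101 and 59.2 against 115 and 121 FPKM, a change of 0.52 ± 0.24. In all 3 genes both EC-KO libraries lay above both controls without the test being passed. The share of all genes separated in this way was not counted, so nothing is read from it.

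Mal was at 69.1 and 51.7 FPKM in control high flow and at 64.8 and 76.5 in EC-KO, and its groups overlapped. Clic5 was at 31.6 and 32.1 against 26.6 and 38.1 FPKM, with an interval of -0.52 to 0.48 on the log2 scale. Nipal2 was at 9.30 and 11.4 against 9.90 and 9.84 FPKM, with an interval of -0.57 to 0.34. Atp6v0d2, the V-ATPase subunit, had few counts, with 18 and 10 counts in control and 40 and 27 in EC-KO, and its interval ran from -0.95 to 2.69. Macrophage markers (14 genes) summed to 45.4 to 114 FPKM in the control and 69.0 to 80.8 in the EC-KO high-flow libraries, and endothelial markers to 5560 to 5700 and 5700 to 5860. B and T lymphocyte markers summed to 1.94 to 10.2 FPKM in control and 25.1 to 239 in EC-KO, with a median log2 fold change of 4.72 over 6 tested, and fat cell markers to 8.04 to 382 and 403 to 662. Neutrophil markers (17.7 to 23.0 and 2.61 to 12.7) and fibroblast markers (256 to 284 and 195 to 244) were lower in both EC-KO libraries. No marker of these lists passed the test, and their part in the values of the 8 genes was not tested.

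**Figure D1:**
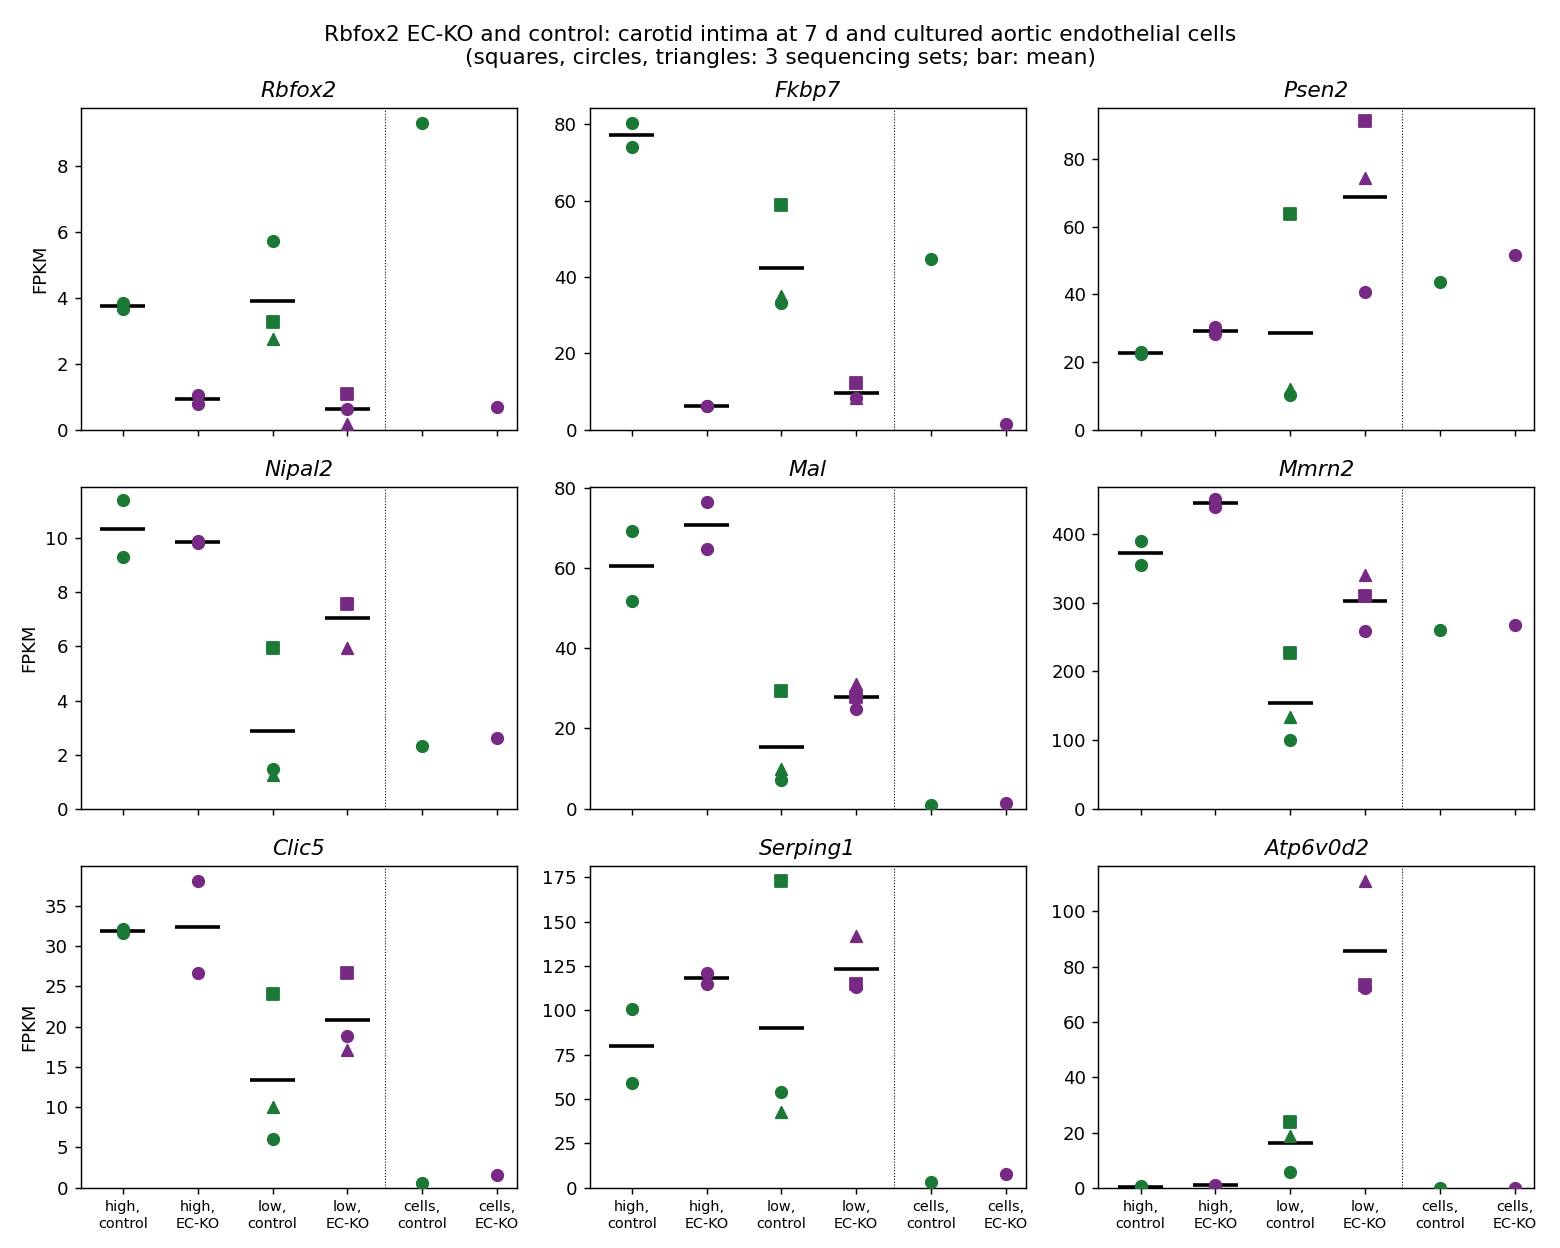
Levels in FPKM (linear axes from 0) of Rbfox2 and the 8 genes in control (green) and EC-KO (purple) libraries, with 1 point per library, the mean as a bar and the marker shape giving the sequencing set. Fkbp7 is low in every EC-KO library (1.60 to 12.2 FPKM against 33.1 to 80.4 in controls), while Atp6v0d2 reaches 72.2 to 111 only in low-flow EC-KO arteries.

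In the low-flow arteries at 7 d, the contrast that chose the genes, Fkbp7 was lower in EC-KO and the other 7 were higher in the fitted mean. No test is given here. The 3 libraries of each genotype came from 3 sequencing sets, with 1 library of each genotype in each set, and the ratios below are taken within a set. Fkbp7 was 58.8, 33.1 and 35.0 FPKM in control and 12.2, 8.41 and 8.18 in EC-KO, in the order of the sets, so its EC-KO level was 4.83, 3.94 and 4.27-fold lower. It moved alike in all 3 sets, and in EC-KO it was no lower under low flow (9.58 ± 2.24 FPKM, SD, n = 3) than under high flow (6.24 ± 0.0461, n = 2). These means mix flow with set, as the high-flow libraries all came from the same set. Within that set Fkbp7 in EC-KO was 8.41 FPKM under low flow and 6.21 and 6.27 under high flow.

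Atp6v0d2 had the largest fitted difference among the 7 that were higher in EC-KO, 2.45 on the log2 scale. It was 23.8, 5.61 and 18.9 FPKM in control and 73.4, 72.2 and 111 in EC-KO, with ratios of 3.08, 12.9 and 5.88. Psen2 was 63.7, 10.2 and 11.9 FPKM in control and 91.2, 40.6 and 74.5 in EC-KO, with ratios of 1.43, 3.98 and 6.25. In Psen2 the control library of the first set stood far above the other control libraries.

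The same first set gave ratios near or below 1 for the genes that low flow lowers at 48 hr. For Mal the EC-KO to control ratio was 0.952 there and 3.53 and 3.12 in the other sets, and for Clic5 it was 1.11 against 3.09 and 1.71. For Nipal2 it was 1.27 against 5.20 and 4.81, for Mmrn2 1.36 against 2.59 and 2.56, and for Serping1 0.664 against 2.09 and 3.31. Rbfox2 was reduced least in that set too, with ratios of 0.332, 0.109 and 0.0617. The 2 libraries of the first set also held RNA of male mice, as Ddx3y, a gene of the Y chromosome, was at 17.7 and 25.9 FPKM in them and at 0 to 0.0141 in the other 8 libraries at 7 d. Without this set, a choice made after seeing the data, the fitted EC-KO to control log2 difference moved from 1.32 to 2.40 for Psen2, from 1.32 to 2.33 for Nipal2, from 0.90 to 1.73 for Mal and from 0.50 to 1.42 for Serping1, and for Fkbp7 from -2.10 to -2.02. Macrophage markers summed to 283 to 1510 FPKM in control and 601 to 1360 in EC-KO low-flow libraries, and overlapped. Fibroblast markers did not overlap, at 175 to 495 FPKM in control and 523 to 1660 in EC-KO, higher in EC-KO as the 7 genes were. The part of either list in these ratios was not tested.

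**Figure D2:**
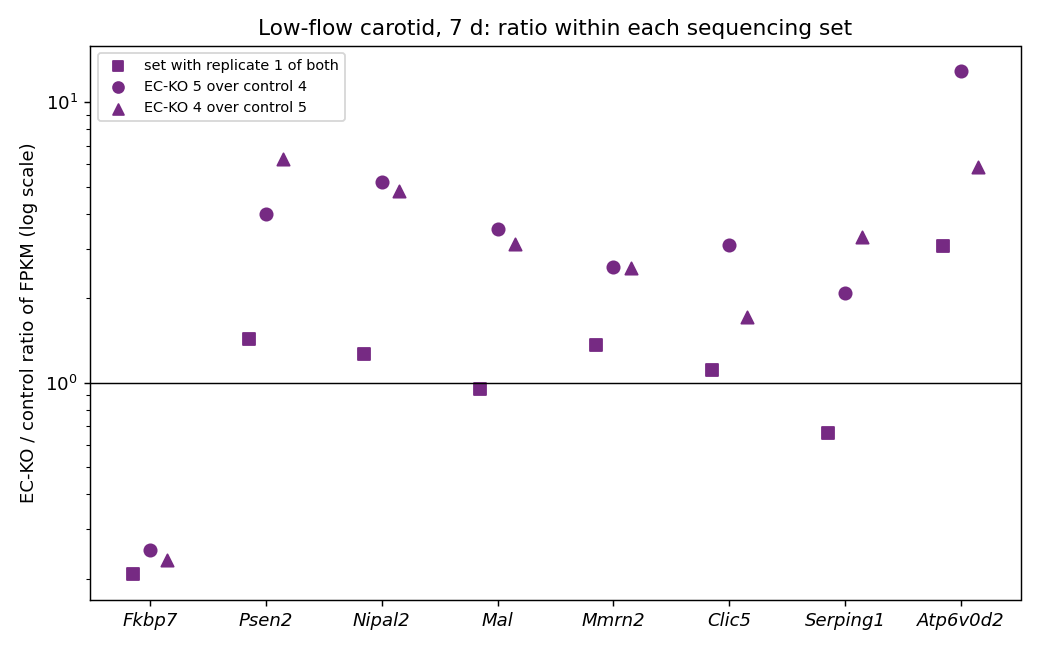
Ratio of EC-KO to control FPKM in low-flow arteries at 7 d (log axis, line at 1), with 1 point per sequencing set for each gene. Fkbp7 lies between 0.207 and 0.254 in all 3 sets, and the square, the set with replicate 1 of both genotypes, lies nearest to or below 1 for the other 7 genes.

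Low against high flow at 7 d is also given as values with no test, since its low-flow libraries are those that chose the genes. All high-flow libraries at 7 d came from the same sequencing set, while low-flow ones also came from others. Flow is therefore partly mixed with set in these differences, and in the first set also with the sex of the mice. In control mice the fitted low to high differences on the log2 scale were -0.96 for Fkbp7, 0.24 for Psen2, -1.94 for Nipal2, -2.06 for Mal, -1.37 for Mmrn2, -1.35 for Clic5, 0.07 for Serping1 and 5.06 for Atp6v0d2. In EC-KO mice they were 0.61, 1.23, -0.50, -1.35, -0.57, -0.65, 0.06 and 6.65 in the same order. Nipal2, Mal, Mmrn2 and Clic5 were lower and Atp6v0d2 higher under low flow in both genotypes. Without the first set, the control differences became -1.10 for Psen2, -3.00 for Nipal2, -2.89 for Mal, -2.05 for Clic5 and -0.79 for Serping1. In control mice endothelial markers summed to 2380 to 3810 FPKM under low and 5560 to 5700 under high flow, smooth muscle markers to 722 to 1090 against 150 to 193 and macrophage markers to 283 to 1510 against 45.4 to 114. In EC-KO mice the same lists summed to 3110 to 3360 against 5700 to 5860, 640 to 1030 against 138 to 161 and 601 to 1360 against 69.0 to 80.8, and fibroblast markers to 523 to 1660 against 195 to 244. Fat cell markers summed to 22.9 to 129 under low against 403 to 662 under high flow in EC-KO mice, lower as Nipal2, Mal, Mmrn2 and Clic5 were. In control mice they overlapped, at 15.4 to 326 against 8.04 to 382. Their part in these differences was not tested.

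The sorted primary cells show the genes in culture, away from flow and from most other cells of the wall, with 1 library per genotype. Fkbp7 had 12 counts in EC-KO and 490 in control cells, or 1.60 and 44.6 FPKM, so it was 27.9-fold lower (exact Poisson 95% interval 15.8 to 54.3, which covers counting error only). Rbfox2 had 45 and 912 counts, 13.8-fold lower (10.2 to 19.1). Plekha3, the neighbour of Fkbp7, had an EC-KO to control ratio of 1.04 (0.962 to 1.13).

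Among the other genes in primary cells, Clic5 had an EC-KO to control ratio of 2.58 (1.80 to 3.73) and Serping1 of 2.42 (1.81 to 3.25). Psen2 stood at 1.18 (1.09 to 1.29), Nipal2 at 1.13 (0.860 to 1.49), Mal at 1.38 (0.840 to 2.28) and Mmrn2 at 1.03 (1.00 to 1.05). Atp6v0d2 had 1 and 2 counts, a ratio of 0.733 (0.0124 to 14.1), too few to compare. The 14 macrophage markers summed to 2.06 FPKM in the EC-KO culture, with 9 of them at 0, among them Csf1r and Emr1, and to 335 in the control culture, with Fcgr1, Cd163 and Cx3cr1 at 0. In EC-KO and control, fibroblast markers summed to 111 and 45.7 FPKM, smooth muscle markers to 2770 and 3480 and endothelial markers to 2910 and 2630. The part of these markers in the ratios was not tested, and with 1 library each the cultures cannot be told apart from the genotypes. The eGFP-sorted primary cells, sequenced apart, had Fkbp7 at 63.0 FPKM, Psen2 at 50.1 and Mmrn2 at 73.4, while Mal, Nipal2, Clic5, Serping1 and Atp6v0d2 lay between 0.510 and 4.18.

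At 48 hr in untreated mice, low flow lowered most of the 8 genes and raised 1. Mal, Clic5, Mmrn2, Nipal2, Serping1 and Fkbp7 fell in low against high flow, Atp6v0d2 rose, and Psen2 did not pass. This makes 7 of 8 genes called, with 46.2% of all 11236 genes called in this comparison, 23.6% higher and 22.6% lower, so a call by itself is common here. The largest falls were those of Clic5, 12.6-fold, and Mal, 8.94-fold.

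Clic5 was at 0.231, 0.197 and 1.44 FPKM in the 3 low-flow pools and at 8.24, 13.8 and 11.9 in the 3 high-flow pools. All low-flow pools lay below all high-flow pools, and the log2 fold change was -3.65 ± 0.38 (adjusted p = 3.02e-05). Mal was at 1.40, 0.855 and 5.60 FPKM under low flow and 38.1, 31.2 and 31.3 under high flow, again without overlap. Its log2 fold change was -3.16 ± 0.32 (adjusted p = 2.59e-05). Mmrn2, the matrix glycoprotein and the most abundant of the 8 per length in high-flow pools, was at 18.2, 29.6 and 58.2 FPKM under low flow and 168, 148 and 161 under high flow. It fell 3.00-fold (log2 fold change -1.58 ± 0.27, adjusted p = 0.000858).

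Nipal2 was at 1.32, 0.551 and 2.53 FPKM under low flow and 8.10, 7.98 and 6.94 under high flow, and fell 3.41-fold (log2 fold change -1.77 ± 0.27, adjusted p = 0.000429). Serping1, the complement inhibitor, was at 6.58, 4.70 and 48.9 FPKM against 86.5, 105 and 119. Low-flow pool c stood far above the other low-flow pools in this gene, and the fall was 4.05-fold (log2 fold change -2.02 ± 0.48, adjusted p = 0.00600). Fkbp7 was at 45.1, 41.2 and 87.5 FPKM against 164, 126 and 138, a smaller fall of 1.60-fold after scaling (log2 fold change -0.68 ± 0.18, adjusted p = 0.0116). Without high-flow pool a its change was -0.49 (adjusted p = 0.0503).

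Psen2, the gamma-secretase subunit, was at 5.04, 6.73 and 16.2 FPKM under low flow and 22.7, 21.9 and 15.2 under high flow. The groups overlapped, and the log2 fold change of -0.54 ± 0.24 did not pass (adjusted p = 0.0916, and 0.0420 without high-flow pool c). Atp6v0d2 was the gene that rose. It was at 1.56, 1.43 and 8.48 FPKM under low flow and 0.0995, 1.11 and 0.280 under high flow, where the 3 pools had 1, 16 and 3 counts. Its log2 fold change was 3.23 ± 0.64, a 9.41-fold rise (adjusted p = 0.00196), and it was 2.49 without low-flow pool c and 4.65 without high-flow pool b. Without low-flow pool c the falls of Clic5 (-4.64), Mal (-3.80) and Serping1 (-3.12) were larger on the log2 scale.

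The genes moved beside large changes in cell markers. The macrophage markers summed to 2450 to 3850 FPKM in the low-flow and 56.1 to 145 in the high-flow pools, and 12 of 13 tested were higher under low flow. Neutrophil markers summed to 503 to 1200 against 18.1 to 39.5 FPKM and smooth muscle markers to 1450 to 2700 against 323 to 384. Of 7 smooth muscle markers tested 3 were called higher, led by Acta2, and the median log2 fold change over the 7 was -0.12. Endothelial markers summed to 2500 to 2960 under low and 4970 to 5140 under high flow, with 2 of 11 higher and 3 lower after scaling and a median log2 fold change of 0.12. Fat cell markers summed to 58.6 to 139 FPKM under low and 481 to 4170 under high flow, with 6 of 6 tested lower, and fibroblast markers to 28.0 to 183 against 192 to 406, with 3 of 8 lower and none higher. These lists moved in the same direction as the 6 genes that fell. The part of the markers in the values of the 8 genes was not tested. Without low-flow pools a and b, which leaves 1 low-flow pool, only the log2 fold changes are given. They were -2.90 for Clic5, -2.52 for Mal, -1.54 for Nipal2, -1.39 for Mmrn2 and -1.01 for Serping1. Fkbp7 was at -0.65, Psen2 at -0.24 and Atp6v0d2 at 4.01.

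**Figure D3:**
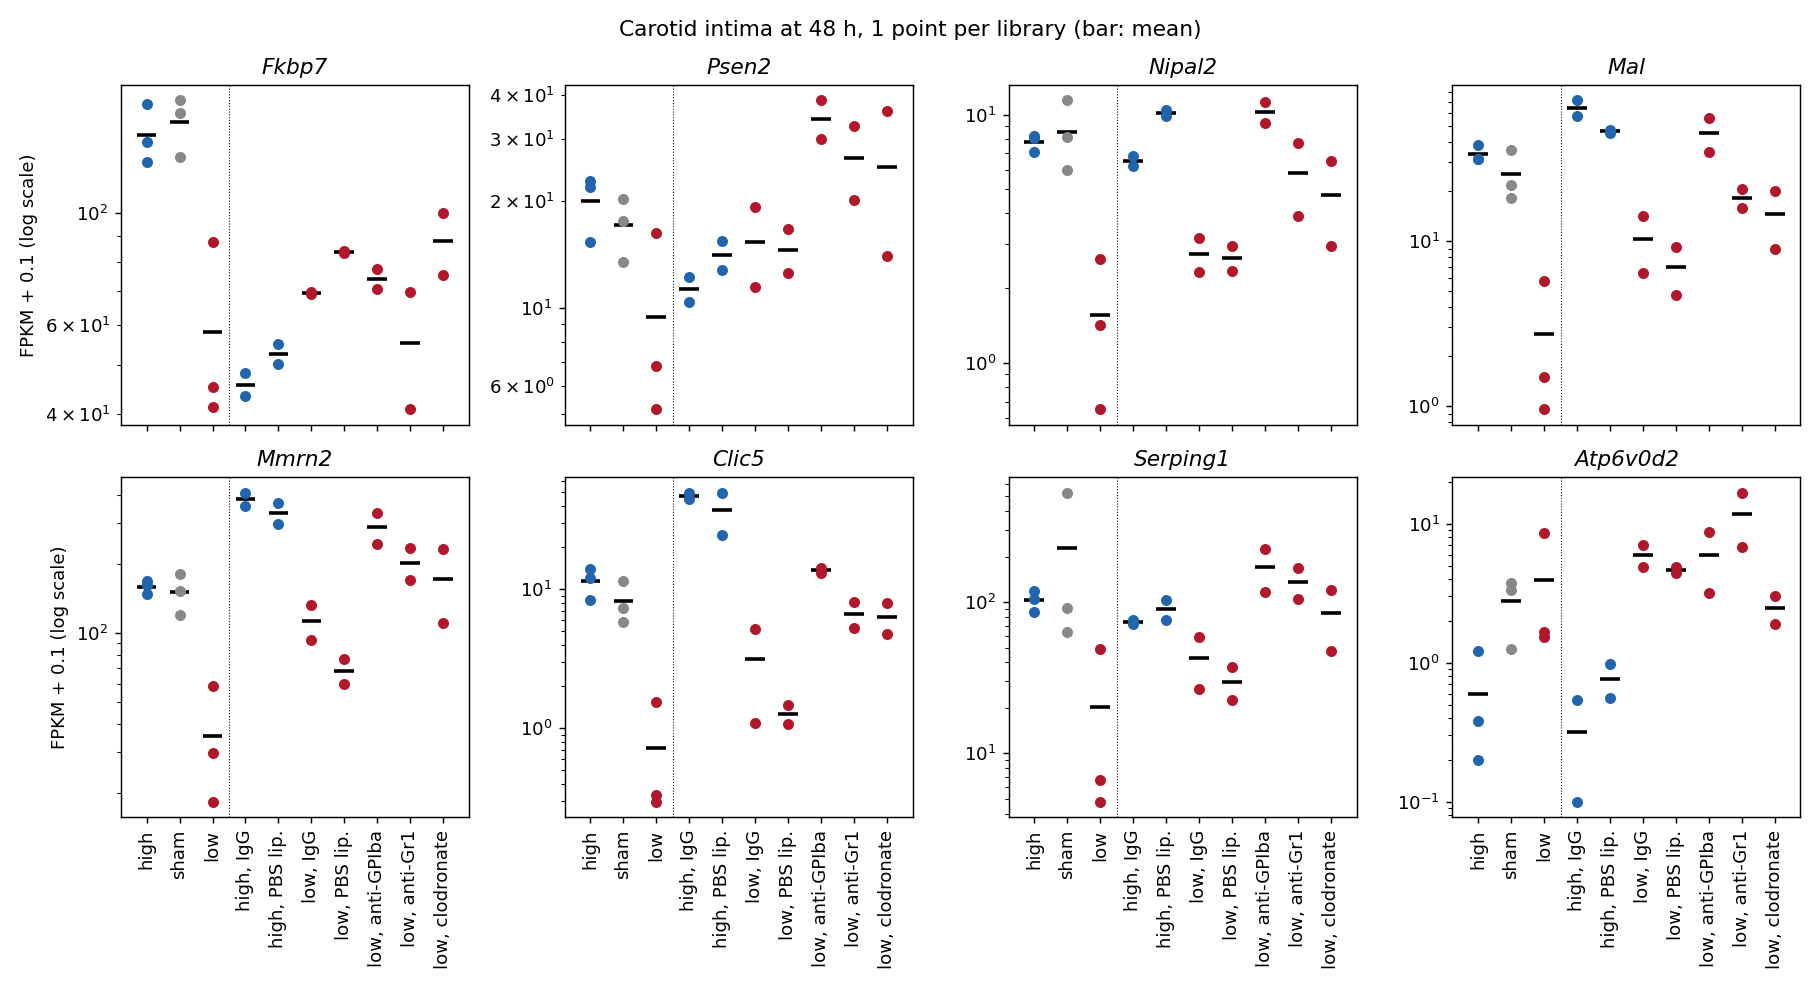
Levels at 48 hr (FPKM + 0.1, log axes) of the 8 genes, with 1 point per pool and the mean as a bar. High-flow pools are blue, sham grey and low-flow red, and the dotted line parts the untreated pools from the treated ones, which were sequenced apart. In untreated mice the 3 low-flow pools of Mal (0.855 to 5.60) lie below every high-flow and sham pool (18.1 to 38.1).

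Sham arteries, encircled with suture that was not tied, were compared to ask whether the difference lay with low or with high flow. Against sham, 6 of the 8 genes fell under low flow, with 40.3% of 11164 genes called, 20.6% higher and 19.7% lower. Mal fell 6.53-fold (log2 fold change -2.71 ± 0.39, adjusted p = 0.00198) from sham levels of 21.8, 35.7 and 18.1 FPKM. Clic5 fell 8.75-fold (-3.13 ± 0.44, adjusted p = 0.00185) from 7.29, 11.3 and 5.69 FPKM. Nipal2 fell 3.60-fold from 8.05, 11.3 and 5.90 FPKM, Mmrn2 2.75-fold from 152, 181 and 119, and Fkbp7 1.64-fold from 167, 129 and 158.

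Serping1 fell 8.69-fold against sham (log2 fold change -3.12 ± 0.89, adjusted p = 0.0236), with sham pool b at 530 FPKM and the other sham pools at 91.5 and 63.3. Without sham pool b the change was -1.57 and the call was lost, as it was without low-flow pool a or b (adjusted p up to 0.0932). Without low-flow pool c the change was -4.20 for Serping1, -4.10 for Clic5 and -3.33 for Mal. The Fkbp7 call was lost without sham pool a (adjusted p = 0.0639). Psen2 (-0.26 ± 0.23) and Atp6v0d2 (0.99 ± 0.52) did not pass, and the sham pools of Atp6v0d2, at 3.22, 1.15 and 3.65 FPKM, overlapped those of low flow. Without low-flow pools a and b together, 1 low-flow pool was left against 3 sham pools and none of the 8 and none of all genes passed. Whether this comes from the pools or from the single-pool group was not tested. The changes then ranged from -2.38 for Clic5 to 1.73 for Atp6v0d2. In low flow against sham with all pools, 12 of 13 macrophage, 6 of 6 neutrophil and 2 of 7 smooth muscle markers tested were higher and none lower. Of 11 endothelial markers 2 were higher and 3 lower, and of 7 fibroblast markers 1 was higher and 3 lower. Their part in the values of the 8 genes was not tested.

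High flow against sham gave small fitted differences in most of these genes. None of the 8 passed edgeR's quasi-likelihood test, and no gene of 11030 did (0%), while an unadjusted p under 0.05 was found for 868 genes. DESeq2 called 101. The fitted difference of Fkbp7 was -0.03 ± 0.19 on the log2 scale, that of Nipal2 -0.07 ± 0.22 and that of Mmrn2 0.14 ± 0.19, with intervals of -0.45 to 0.40, -0.57 to 0.44 and -0.28 to 0.55. Serping1 was at -1.07 ± 0.64, and at 0.43 without sham pool b, while Clic5 (0.54 ± 0.25) and Mal (0.48 ± 0.24) lay above sham without passing. Atp6v0d2 lay below it, at -2.26 ± 0.67 (adjusted p = 0.362), and 1 high-flow pool had a single count. Macrophage markers summed to 195 to 661 FPKM in sham, above the 56.1 to 145 of the high-flow pools, and 0 of 10 tested passed. Fat cell markers summed to 481 to 4170 FPKM in the high-flow and 39.8 to 433 in the sham pools, with a median log2 fold change of 3.23 over 6 tested and none passing. They were higher in high flow, as the fitted values of Clic5 and Mal were, and the part of either list was not tested.

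Treated control mice gave a further set of low and high flow arteries. Every low-flow pool came from another sequencing set than every high-flow pool, so flow and set cannot be told apart. With IgG, 5 of 8 genes passed, with 40.5% of 13401 genes called, 22.8% higher and 17.7% lower. With PBS liposomes 7 of 8 passed, with 35% called, 19.6% higher and 15.5% lower. Mal, Clic5, Mmrn2, Nipal2 and Atp6v0d2 passed in both, each in the direction seen in untreated mice. Clic5 fell from 44.5 and 48.8 FPKM under high flow to 5.07 and 1.00 under low flow with IgG (log2 fold change -4.04 ± 0.64, adjusted p = 0.00142), and from 49.5 and 24.3 to 1.37 and 0.970 with PBS liposomes (-4.87 ± 0.67, adjusted p = 0.000684). With PBS liposomes this is a 29.3-fold fall, and no low-flow pool overlapped a high-flow pool.

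Mal fell from 56.9 and 71.0 to 14.1 and 6.30 FPKM with IgG (-2.74 ± 0.48, adjusted p = 0.00203) and from 47.2 and 45.3 to 9.06 and 4.62 with PBS liposomes (-2.64 ± 0.48, adjusted p = 0.00242). Mmrn2 fell from 409 and 358 to 132 and 92.6 FPKM with IgG and from 367 and 297 to 76.5 and 59.7 with PBS liposomes, which is 3.62-fold and 4.51-fold. Nipal2 fell from 6.70 and 6.09 to 3.08 and 2.23 FPKM with IgG (2.55-fold, adjusted p = 0.0184) and from 10.3 and 9.78 to 2.24 and 2.87 with PBS liposomes (3.65-fold, adjusted p = 0.00512). The low-flow and high-flow pools of these genes did not overlap in either treatment, and the share of all genes for which this holds was not counted.

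Atp6v0d2 rose from 0 and 0.436 to 6.97 and 4.81 FPKM with IgG (adjusted p = 0.00467) and from 0.459 and 0.873 to 4.81 and 4.31 with PBS liposomes (adjusted p = 0.0244). With IgG its log2 fold change of 4.60 ± 0.98 became 3.64 without high-flow pool 1. Without high-flow pool 2 the library at 0 was the only one left in its group, so no fold is given. It allows up to 0.104 FPKM, the level of 3 counts. Serping1 went from 75.9 and 71.1 to 58.9 and 26.6 FPKM with IgG, which did not pass (-0.87 ± 0.49, adjusted p = 0.170), and fell from 75.8 and 104 to 37.0 and 22.3 with PBS liposomes (-1.48 ± 0.50, adjusted p = 0.0373). Psen2 passed in neither, at 0.36 ± 0.41 and 0.16 ± 0.41. Without low-flow pool 1 of IgG the change was -5.60 for Clic5 and -3.41 for Mal, and without high-flow pool 1 of PBS liposomes it was -4.24 for Clic5. With IgG the call of Nipal2 was lost without either high-flow pool or without low-flow pool 2 (adjusted p up to 0.143). With PBS liposomes 4 genes remained whichever pool was left out, while Fkbp7, Serping1 and Atp6v0d2 were lost each time.

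Fkbp7 was higher under low flow in treated mice, opposite to its fall in untreated mice. It was at 48.0 and 43.2 FPKM under high flow and 69.7 and 69.1 under low flow with IgG (0.52 ± 0.23, adjusted p = 0.0926), and at 50.1 and 54.8 against 83.1 and 83.8 with PBS liposomes, where it rose 1.72-fold (0.78 ± 0.23, adjusted p = 0.0240). In each treatment both low-flow pools lay above both high-flow pools. The difference of the flow responses, a test added after the data were seen, was -1.17 ± 0.30 for untreated minus IgG mice (adjusted p = 0.0433, 3.6% of 14259 genes called) and -1.42 ± 0.30 for untreated minus PBS liposome mice (adjusted p = 0.0167, 3.82% called). The other 7 genes did not pass it. Plekha3, the neighbour of Fkbp7, changed sign likewise, at -0.78 ± 0.26 in untreated (adjusted p = 0.0280), 0.39 ± 0.29 in IgG and 0.30 ± 0.29 in PBS liposome mice, of which only the first passed. The difference was not tested for this gene. The untreated low-flow and high-flow pools came from 1 sequencing set and the treated ones of this test from others, with other read lengths. The part of set and read length in the difference cannot be told apart from that of the treatment. A treated low-flow pair in the untreated set, with no high-flow pool, had Fkbp7 at 107 FPKM with PBS liposomes and 146 with clodronate. The untreated low-flow pools were at 45.1, 41.2 and 87.5. Macrophage markers summed to 2310 to 2490 under low flow and 58.4 to 235 under high flow with IgG, and to 1370 to 2370 and 96.6 to 191 with PBS liposomes, and endothelial markers to 2530 to 2820 under low and 4590 to 5930 under high flow in both. Fibroblast markers summed to 115 to 154 under low against 382 to 384 under high flow with IgG, with 3 of 8 lower, and to 73.4 to 99.6 against 209 to 242 with PBS liposomes, with 2 of 8 lower. Fat cell markers summed to 33.4 to 178 against 121 to 209 with IgG (median log2 fold change -1.23), where 1 of 7, Plin1, was lower. With PBS liposomes they summed to 44.4 to 104 against 118 to 197 (median -2.39), with none called. Neutrophil markers (125 to 439 against 5.62 to 66.2 with IgG, 172 to 492 against 5.26 to 17.9 with PBS liposomes) and smooth muscle markers (2670 to 2850 against 266 to 410, and 1830 to 3620 against 261 to 516) summed higher under low flow. Of 8 smooth muscle markers 2 were called higher in each treatment. The median log2 fold change over the 8 was -0.03 with IgG and 0.08 with PBS liposomes. The part of these markers in the values of the 8 genes was not tested.

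**Figure D4:**
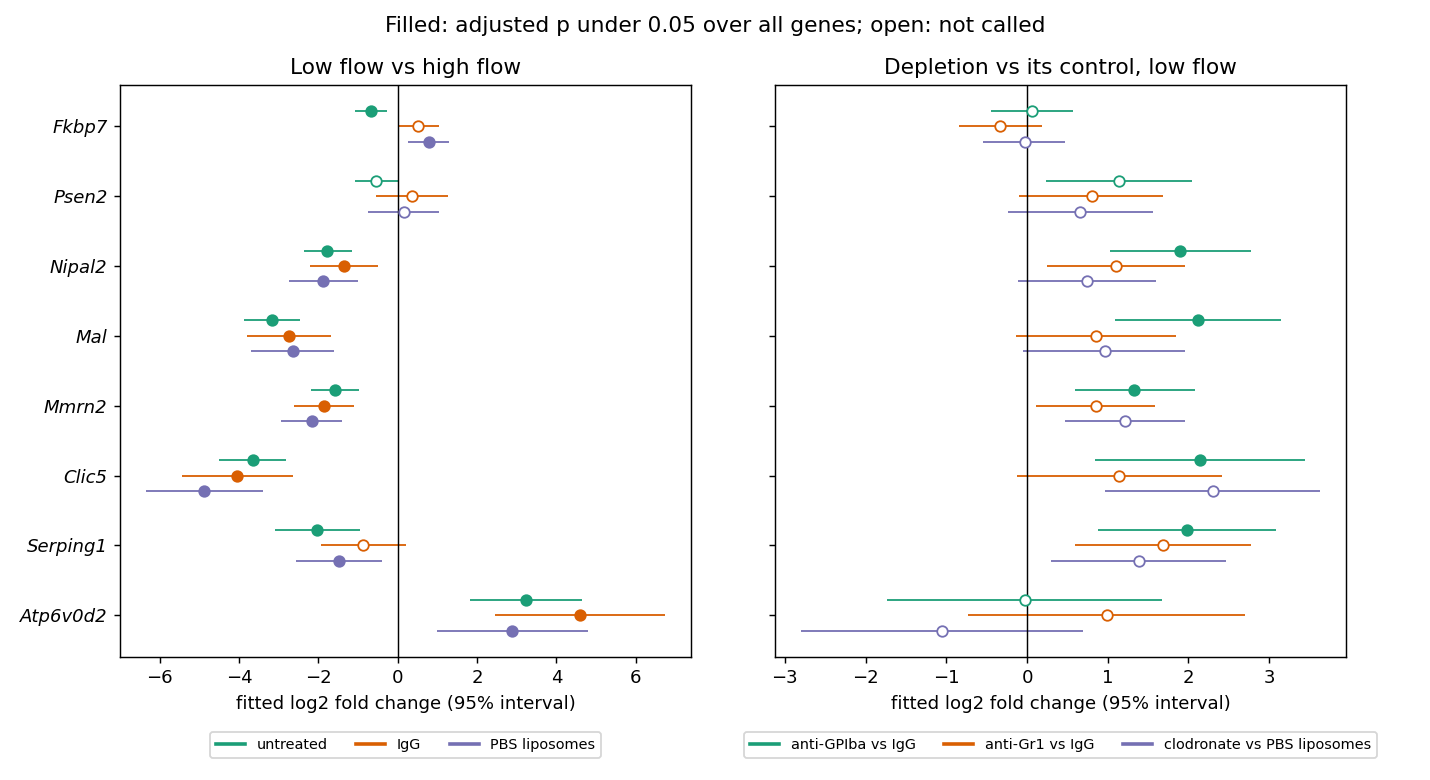
Fitted log2 fold changes with 95% intervals at 48 hr, on the left for low against high flow in 3 kinds of mice and on the right for each depletion against its control under low flow, filled where the adjusted p is under 0.05. Clic5, Mal, Mmrn2 and Nipal2 lie left of 0 in all 3 flow comparisons, and Fkbp7 changes side, from -0.68 in untreated to 0.78 in PBS liposome mice.

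The depletions asked what platelets, granulocytes and macrophages contribute under low flow, so each depleted low-flow group was compared with its control low-flow group. With platelets depleted, 5 of the 8 genes rose: Nipal2, Mal, Mmrn2, Serping1 and Clic5. In this comparison 16.5% of 13401 genes were called, 6.05% higher and 10.5% lower. Mal was at 34.6 and 55.6 FPKM with anti-GPIba and 14.1 and 6.30 with IgG, a 4.35-fold rise (log2 fold change 2.12 ± 0.47, adjusted p = 0.0247). Clic5 was at 14.1 and 13.0 against 5.07 and 1.00 FPKM, 4.41-fold (2.14 ± 0.59, adjusted p = 0.0371). Nipal2 was at 9.11 and 11.1 against 3.08 and 2.23 FPKM, 3.73-fold (1.90 ± 0.40, adjusted p = 0.0219).

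Serping1 was at 117 and 225 FPKM with anti-GPIba and 58.9 and 26.6 with IgG, 3.94-fold higher (1.98 ± 0.50, adjusted p = 0.0317). Mmrn2 was at 334 and 244 against 132 and 92.6 FPKM, 2.52-fold (1.33 ± 0.34, adjusted p = 0.0319). In all 5 genes both depleted pools lay above both IgG pools (share over all genes not counted). Psen2 also did so, at 29.9 and 38.6 against 19.2 and 11.3 FPKM, without passing (1.14 ± 0.41, adjusted p = 0.0716), but it was called by DESeq2 (adjusted p = 0.0329), in the 2-group fit (0.0192) and with the replicate number as a block (0.0258). Without any 1 library its adjusted p was 0.0805 to 0.403. Fkbp7 (0.06 ± 0.23) and Atp6v0d2 (-0.03 ± 0.78) had fold changes near 0, the latter with an interval of -1.74 to 1.67.

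These calls rested on all 4 libraries. Without any 1 of the 4 libraries, where the lone library is assumed to vary like the other treated groups, only 0 or 1 of the 8 genes passed (Clic5 without IgG pool 1, adjusted p = 0.0345) and only 1 to 89 of all genes, while the log2 fold changes of the 5 stayed between 1.09 and 3.72. The IgG low-flow pools also serve the IgG flow comparison and the anti-Gr1 comparison, as the PBS liposome low-flow pools serve the PBS liposome and clodronate comparisons. Macrophage markers summed to 169 to 267 FPKM with anti-GPIba against 2310 to 2490 with IgG, and 10 of 14 were lower. Neutrophil markers summed to 8.53 to 19.8 against 125 to 439, with 5 of 9 tested lower, and the markers of platelets, the depleted cells, to 10.1 to 27.5 against 41.4 to 46.4, with 2 of 7 lower. Smooth muscle markers summed to 424 to 600 against 2670 to 2850 and endothelial markers to 4330 to 4430 against 2570 to 2820, with 2 of 11 higher. Of 8 smooth muscle markers 2 were called lower, led by Acta2 (-2.9 ± 0.66), and the median log2 fold change over the 8 was -0.13. Fibroblast markers summed to 277 to 542 against 115 to 154 FPKM without overlap, and 1 of 8, Dcn, rose (2.28 ± 0.63, adjusted p = 0.0371). Fat cell markers summed to 77.4 to 551 against 33.4 to 178 and overlapped, with a median log2 fold change of 2.2 over 7 tested and none called. The part of these markers in the rise of the 5 genes was not tested.

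Depletion of granulocytes gave no called gene by edgeR's quasi-likelihood test among 13401 (0%) and none of the 8, while an unadjusted p under 0.05 was found for 2432 genes. DESeq2 called 142. Serping1 had the largest difference, at 168 and 105 FPKM with anti-Gr1 against 58.9 and 26.6 with IgG (log2 fold change 1.68 ± 0.50, adjusted p = 0.243), and DESeq2 called it (adjusted p = 0.0463). Nipal2 was at 7.61 and 3.80 against 3.08 and 2.23 FPKM (1.10 ± 0.39) and Mmrn2 at 234 and 169 against 132 and 92.6 (0.85 ± 0.34). Mal (0.85 ± 0.45), Clic5 (1.14 ± 0.58) and Psen2 (0.80 ± 0.41) also had positive values, and Fkbp7 had a negative one (-0.33 ± 0.23). Atp6v0d2 was at 16.7 and 6.70 FPKM, the highest mean of the 7 treated groups, with a change of 0.99 ± 0.78. The neutrophil markers summed to 22.9 to 45.7 FPKM against 125 to 439 with IgG, and the macrophage markers to 1010 to 1200 against 2310 to 2490. Fibroblast markers summed to 260 to 464 against 115 to 154 FPKM and endothelial markers to 3140 to 3550 against 2570 to 2820, both higher in each anti-Gr1 pool than in each IgG pool. The part of these markers in the values of the 8 genes was not tested.

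Depletion of macrophages with clodronate called 16 of 13401 genes, all lower (0.119%), and none of the 8. At an unadjusted p under 0.05 there were 2002 genes, and DESeq2 called 462. Clic5 was at 7.81 and 4.64 FPKM with clodronate against 1.37 and 0.970 with PBS liposomes, a log2 fold change of 2.30 ± 0.61 (adjusted p = 0.163, and 0.00318 by DESeq2). Mmrn2 was at 233 and 110 against 76.5 and 59.7 FPKM (1.21 ± 0.34, adjusted p = 0.189, and 0.0191 by DESeq2). In both genes the groups did not overlap, and the share of all genes for which this holds was not counted.

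In Serping1 (121 and 47.4 against 37.0 and 22.3 FPKM, 1.39 ± 0.49), Mal (19.9 and 8.91 against 9.06 and 4.62, 0.96 ± 0.46), Nipal2 (6.40 and 2.85 against 2.24 and 2.87, 0.74 ± 0.39) and Psen2 (35.9 and 13.9 against 16.6 and 12.4, 0.66 ± 0.41) clodronate pool 1 was high and pool 2 nearer the controls. Without clodronate pool 1 the changes were 0.60 for Serping1, 0.30 for Mal, 0.08 for Nipal2 and -0.14 for Psen2. The fit without clodronate pool 2 rests on a single clodronate pool. Many more genes passed in it than in the main fit, so calls of the 8 genes there are not read. Fkbp7 was at 100.0 and 75.4 FPKM against 83.1 and 83.8 (-0.03 ± 0.23), and Atp6v0d2 was at 2.92 and 1.81 against 4.81 and 4.31 (-1.05 ± 0.80). Macrophage markers summed to 226 to 240 FPKM with clodronate against 1370 to 2370, and 2 of 14 were called lower. Neutrophil markers summed to 56.8 to 70.5 against 172 to 492 and smooth muscle markers to 1490 to 1630 against 1830 to 3620. No smooth muscle marker was called, and their median log2 fold change was -0.2. Endothelial markers (3340 to 4330 against 2530 to 2740) and fat cell markers (130 to 152 against 44.4 to 104) were higher in both clodronate pools, with no marker of either list called. The part of these markers in the values of the 8 genes was not tested.

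A separate pair of low-flow pools, sequenced with 100 bp reads and 1 pool each, gave clodronate to PBS liposome ratios with exact Poisson 95% intervals. The ratio was 3.72 (3.07 to 4.53) for Serping1, 3.39 (2.25 to 5.25) for Clic5, 3.05 (1.78 to 5.48) for Nipal2, 2.59 (1.87 to 3.63) for Mal and 1.93 (1.80 to 2.08) for Mmrn2. Psen2 stood at 1.50 (1.2 to 1.88) and Fkbp7 at 1.37 (1.21 to 1.55), both above 1, and Atp6v0d2 at 0.635 (0.393 to 1.01). The intervals cover counting error only and say nothing on the spread between pools. In the clodronate and PBS liposome pools of this pair, macrophage markers summed to 223 and 1740 FPKM, neutrophil markers to 255 and 878, endothelial markers to 3690 and 2820, fibroblast markers to 121 and 77.0 and B and T lymphocyte markers to 20.6 and 8.06. Their part in the ratios was not tested.

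**Figure D5:**
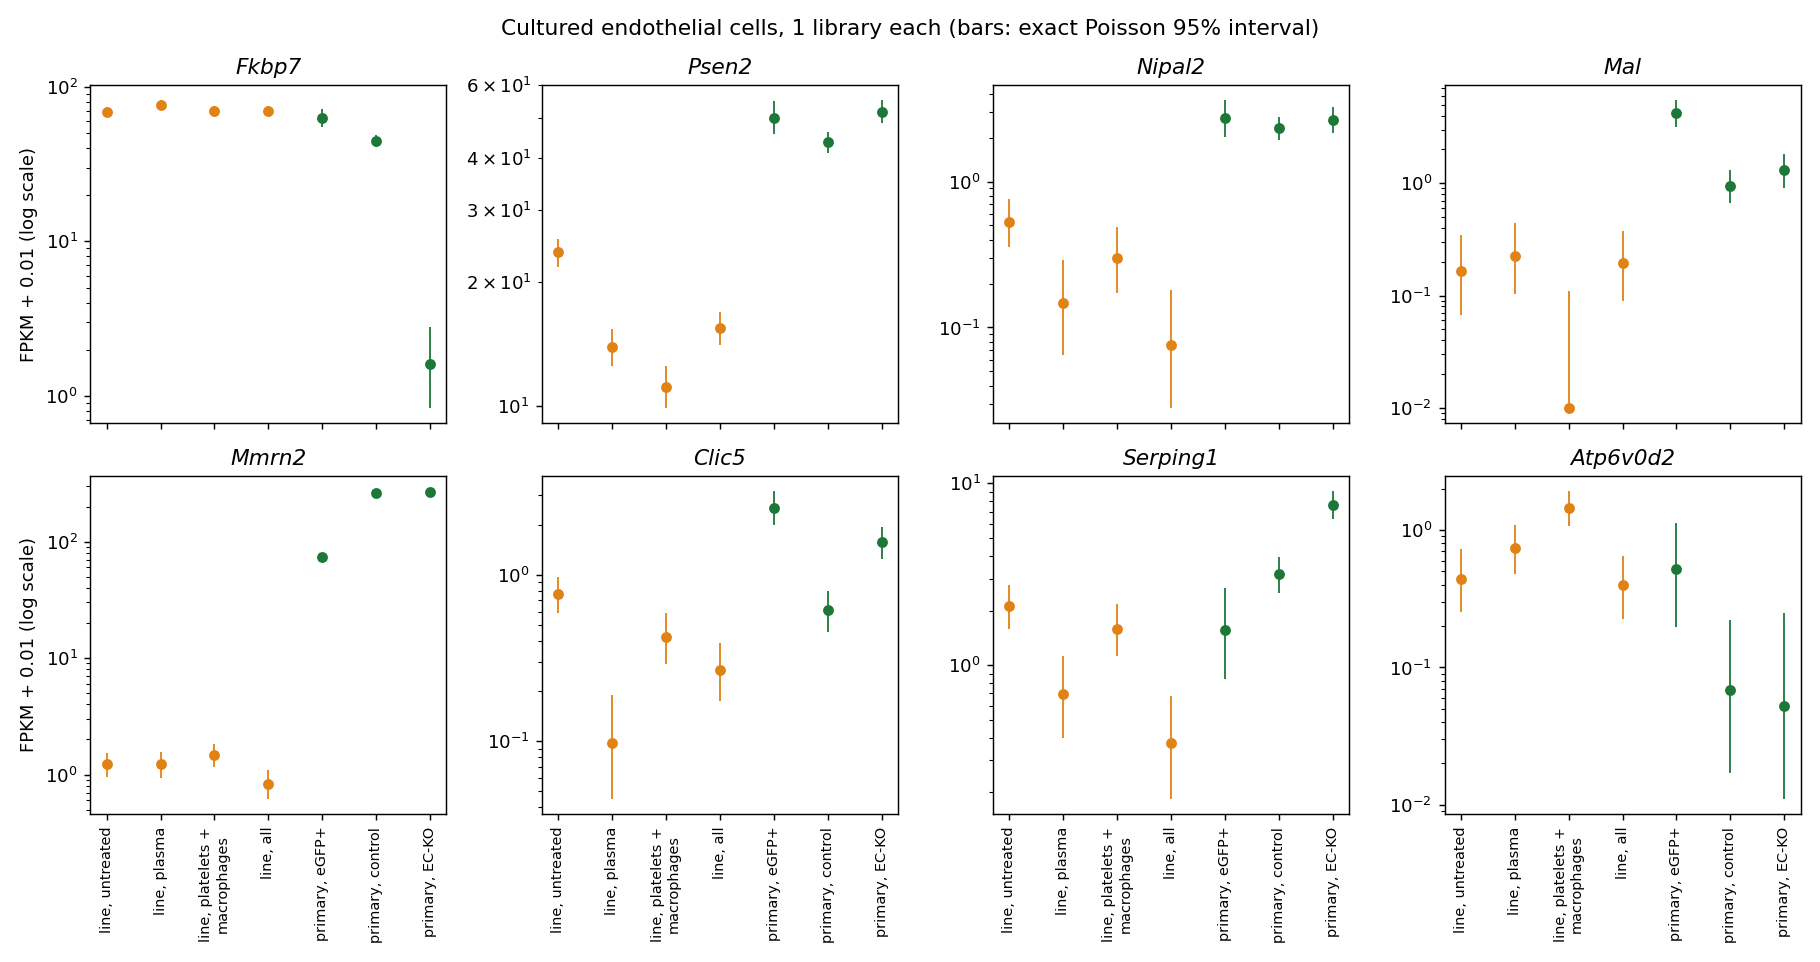
Levels in cultured endothelial cells (FPKM + 0.01, log axes), 1 library per culture, with exact Poisson 95% intervals as bars. Fkbp7 lies at 68.9 to 76.3 FPKM in the 4 cell line cultures (orange) and at 1.60 in primary EC-KO cells (green), and Mmrn2 at 0.821 to 1.45 in the cell line and at 260 and 267 in the control and EC-KO primary cells. The eGFP-sorted cells were sequenced in another set.

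In the aortic endothelial line the question was what plasma, platelets and macrophages do without flow. Endothelial markers were low in it: the 11 genes summed to 127 to 178 FPKM, against 2630 and 2910 in the control and EC-KO primary cells of the same sequencing set. Mmrn2, the endothelial matrix gene, was at 1.21 FPKM in the untreated line and at 260 in primary control cells. Mal had 6 counts in the untreated line, 8 with plasma, 0 with platelets plus macrophages and 8 when all were added. The 0 with platelets plus macrophages, which allows up to 0.0811 FPKM, lies below the untreated culture beyond counting error (ratio interval 0 to 0.886), and no difference from it was detectable at this depth with plasma (1.40, 0.426 to 4.89) or when all were added (1.19, 0.363 to 4.17). Fkbp7 was at 68.9 FPKM untreated, and the other cultures stood at 1.01 to 1.11 times that level.

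Psen2 was lower in each addition, at 0.588 (0.515 to 0.671) of the untreated level with plasma, 0.473 (0.410 to 0.545) with platelets plus macrophages and 0.656 (0.581 to 0.741) when all were added. Clic5 was at 0.117 (0.0450 to 0.255), 0.547 (0.347 to 0.846) and 0.341 (0.204 to 0.553), with 63 counts in the untreated culture. Serping1 was at 0.323 (0.172 to 0.574) with plasma, 0.743 (0.474 to 1.15) with platelets plus macrophages and 0.172 (0.0779 to 0.342) when all were added. Both had their lowest level in a culture that held plasma. Fibroblast markers summed to 261 FPKM untreated, 120 with plasma, 203 with platelets plus macrophages and 83.8 when all were added, ordered as Serping1 was. For the same cultures smooth muscle markers summed to 371, 134, 262 and 272, and fat cell markers to 14.3, 154, 10.9 and 116. The part of these lists in the values was not tested.

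Nipal2 was at 0.262 (0.0967 to 0.615), 0.559 (0.278 to 1.08) and 0.128 (0.0326 to 0.365) of its untreated level, on 28 counts or fewer. Atp6v0d2 was at 1.68 (0.845 to 3.44), 3.34 (1.84 to 6.42) and 0.894 (0.407 to 1.96), with 15 counts in the untreated culture. It was highest where macrophage markers were too: these summed to 16.3 FPKM untreated, 44.6 with plasma, 408 with platelets plus macrophages and 287 when all were added. The 4 measured markers of osteoclast-like or lysosomal macrophages did not follow it, at 112 FPKM untreated, 62.2 with plasma, 68.6 with platelets plus macrophages and 18.7 when all were added. With 1 library per culture, differences between cultures and between dishes cannot be told apart.

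The families of the 8 genes were followed in low against high flow of untreated mice to see whether their relatives moved. The lists were drawn up from known families, and their medians are set beside the -0.07 of all genes and their counts beside the 23.6% of all genes that were higher and the 22.6% that were lower. The lists are short, and the 6 of 13 called among the FKBP isomerases is the share of all genes (46.2%). Of 7 other gamma-secretase genes tested beside Psen2, 0 were higher and 2 lower (median -0.20), led by Aph1b, a subunit of the complex (-1.93 ± 0.23, adjusted p = 7.2e-05). Of 19 other V-ATPase subunits, 2 were higher and 4 lower (median -0.24), and Atp6v0e2 was lower (-1.49 ± 0.22), against the direction of Atp6v0d2.

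Of 13 other FKBP isomerases, 5 were higher and 1 lower (median -0.01), led by Fkbp11, another isomerase of the secretory pathway (2.5 ± 0.30, adjusted p = 8.23e-05), against the fall of Fkbp7. Of 10 other MARVEL-domain genes, 3 were higher and 1 lower (median 0.15), and Marveld1 fell (-1.74 ± 0.19). Of 8 other CLIC and ezrin-linker genes, 3 were higher and 2 lower (median -0.18), and Slc9a3r2, an adaptor that ties ezrin to membrane proteins, fell (-2.65 ± 0.24, adjusted p = 1.08e-05). Of 3 other NIPA genes 1, Nipal3, was lower (-1.52 ± 0.34). In the EMILIN and multimerin family 1 of 4, Emilin2, was higher (2.77 ± 0.34), and of 4 complement genes tested with Serping1, 2 were higher, led by C1qb (2.28 ± 0.36), and 1 lower. Of the 4 other genes that the study took to quantitative PCR, 0 were higher and 2 lower (median -1.46), led by Ly6c1, a surface protein of the Ly6 family (-4.26 ± 0.42, adjusted p = 1.95e-05). In high-flow EC-KO against control none of these lists had a called gene, where 0.00803% of all genes were called, so nothing is read from this.

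The genes most like each of the 8 were chosen by Pearson's r of log2(FPKM + 1) over the 23 carotid libraries at 48 hr, a ranking that pools untreated and treated libraries of different read length, and r is given here within the 9 untreated and the 14 treated libraries. These are descriptions over libraries that share flow groups, and differ in depth, so no p is given. For Mmrn2 the first of 11211 genes was Rab3d (0.992 in both sets), for Clic5 Fndc1 (0.983 and 0.988) and Rhpn2 (0.996 and 0.979), and for Mal 1700029G01Rik (0.995 and 0.966) and Cgnl1 (0.989 and 0.959). Cgnl1 encodes a junction protein of endothelial and epithelial cells. For Nipal2 they were Itm2b (0.981 and 0.958) and Ccrl2 (0.971 and 0.939), for Serping1 Casp12 (0.971 and 0.904), for Fkbp7 Ift27 (0.986 and 0.935) and Tmem60 (0.972 and 0.940), for Psen2 Nudt16 (0.959 and 0.921), and for Atp6v0d2 8430408G22Rik (0.914 and 0.878), Bid (0.831 and 0.847) and the chemokine gene Cxcl16 (0.874 and 0.860).

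Among themselves, Mal and Clic5 had r of 0.98 in untreated and 0.95 in treated libraries, Mal and Mmrn2 0.98 and 0.94, and Mal and Nipal2 0.98 and 0.86. Fkbp7 and Mal had 0.94 in untreated libraries but -0.52 in treated ones, and Fkbp7 and Clic5 0.90 and -0.60. Atp6v0d2 was negative with Clic5 in both (-0.38 and -0.65). Fkbp7 was thus positive with Mal and Clic5 in untreated and negative in treated libraries. All these r use FPKM, scaled by total counts. Against TMM this shifts every gene in untreated low against high flow by -0.71 on the log2 scale. The shift is 0.08 with IgG and -0.11 with PBS liposomes. Psen2, not called for flow in untreated mice, had untreated r of 0.87 to 0.92 with the genes that fell. The part of the shift in these r was not tested.

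The start regions of Mal and Clic5, which moved together, and of Fkbp7, which did not follow them in treated mice, are shown as the 250 bases before the annotated start, from RefSeq on GRCm38.p6. CACCC or its reverse complement GGGTG, the letters bound by Kruppel-like factors such as the flow-regulated Klf2 and Klf4, is in capitals where it was found on either strand. RefSeq start regions were at hand for 4 of the 8 genes, the fourth being Psen2. Fkbp7 is at chr2:76673099-76673348 (minus), Mal at chr2:127656696-127656945 (minus) and Clic5 at chr17:44188322-44188571 (plus).
Fkbp7: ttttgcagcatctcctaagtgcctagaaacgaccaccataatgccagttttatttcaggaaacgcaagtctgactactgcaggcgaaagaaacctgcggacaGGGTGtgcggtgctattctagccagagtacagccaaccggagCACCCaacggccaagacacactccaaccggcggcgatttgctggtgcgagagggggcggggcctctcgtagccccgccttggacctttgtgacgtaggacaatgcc
Mal: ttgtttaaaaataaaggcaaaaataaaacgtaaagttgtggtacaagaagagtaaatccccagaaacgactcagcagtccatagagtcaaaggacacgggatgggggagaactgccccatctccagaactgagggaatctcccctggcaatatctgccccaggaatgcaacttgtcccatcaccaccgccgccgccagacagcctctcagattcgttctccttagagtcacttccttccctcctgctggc
Clic5: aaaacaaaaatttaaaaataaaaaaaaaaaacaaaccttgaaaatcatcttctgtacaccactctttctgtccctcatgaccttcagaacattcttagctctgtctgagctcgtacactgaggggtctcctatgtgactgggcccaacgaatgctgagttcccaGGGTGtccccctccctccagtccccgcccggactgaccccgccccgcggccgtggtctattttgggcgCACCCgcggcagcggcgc
Fkbp7 and Clic5 each held 2 matches and Mal none, while 52.0% of 32851 start regions of the same length held at least 1. The AP-1 letters TGANTCA, searched on both strands, were in none of these 3 and in 6.75% of all. A match describes the letters of this window only.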

How the data were processed

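Intimal RNA of mouse carotid arteries and cultured endothelial cells had been sequenced as paired reads of polyA RNA. The authors deposited 1 table of expected counts and RPKM per gene and library. The submitters' processing notes name STAR 2.5.1b, RSEM 1.2.15 and mm9. Expected counts, as the authors deposited them, were rounded to whole numbers for the tests. The RPKM values deposited by the authors served only as an alternative. FPKM were computed from expected counts, the library's total and the effective length in the table. A row that names no gene held at most 0.1175% of a library's counts and was left out, and 137 of 204 value columns were not used. The table held no column of the authors' comparisons.

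Each of the 9 comparisons was fitted with edgeR 4.0.16 (quasi-likelihood, filterByExpr, TMM) in R 4.3.3 with limma 3.58.1, with Benjamini-Hochberg adjustment over all genes tested and a threshold of 0.05. The 2-group fits were used for untreated and 7 d libraries and 1 fit of the 7 groups for treated ones. All 8 genes passed the filter on low counts in each. DESeq2 1.42.0, other scalings and filters, other sets of groups, left-out libraries and a replicate block were tried as alternatives. Scripts were tested on simulated data. Tables and figures used Python 3.11.15, pandas 2.3.3, scipy 1.17.1 and matplotlib 3.10.9. Single libraries were compared with exact Poisson 95% intervals.

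The 8 genes and the lists were chosen with earlier results of these data known. The rule for naming genes took all 8 in every comparison and Rbfox2 at 7 d and in primary cells. It also took the called gene of each family list with the largest fold change. The 3 genes most correlated with each member among genes of at least 1 FPKM were found, and for most members only the first of these are named. Plekha3, Prkra and Ddx3y were added after their values were seen. Depth was 4064477 to 19035957 counts in arteries, 13975153 to 16394043 in the cell line and 9931356 to 14556377 in the Rbfox2 primary cells.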

Additional observations from a re-analysis of the deposited data

Results flagged for a closer look

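The low against high flow response of Fkbp7 at 48 hr differed between untreated and treated mice by a test of the difference itself, which was added after the data were seen. Fkbp7 fell under low flow in untreated mice and was higher under low flow in both treated groups. The difference of the log2 fold changes was -1.17 for untreated minus IgG mice (95% interval -1.81 to -0.53, edgeR's quasi-likelihood test, adjusted p = 0.0433). For untreated minus PBS liposome mice it was -1.42 (-2.06 to -0.78, adjusted p = 0.0167). In each group of mice the low-flow mean lay on the same side for every pool: all 3 untreated low-flow pools below all 3 high-flow pools, and both treated low-flow pools above both high-flow pools. The single responses were less stable: the untreated fall was lost without high-flow pool a (adjusted p = 0.0503) and without low-flow pools a and b (0.131), the IgG change did not pass (0.0926), and the PBS liposome rise was lost with upper-quartile scaling (0.0820) and without any 1 of its pools (0.0696 to 0.143). The test of the difference was not repeated under other settings. Read length and sequencing set differ between the untreated libraries and the treated libraries of this test, and cannot be told apart from the treatment. A PBS liposome low-flow pool sequenced in the set of the untreated pools had Fkbp7 at 107 FPKM. The untreated low-flow pools were at 45.1, 41.2 and 87.5, and that set held no treated high-flow pool to give a response. Within the treated mice, low-flow and high-flow pools also came from different sequencing sets, so flow and set cannot be told apart there. Plekha3, the neighbour of Fkbp7, had -0.78 in untreated, 0.39 in IgG and 0.30 in PBS liposome mice, and Prkra, which lies on the other side of Fkbp7 and was also chosen after its values were seen, had -0.45, 0.70 and 0.56. The differences of these 2 genes were not tested.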

How the results depend on the processing

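Over the 8 genes in 9 comparisons, RLE scaling kept the direction and call of 72 of 72 results, upper-quartile scaling of 69, no filter on low counts of 70 and DESeq2 of 68, whose other 4 were newly called. The number of the 8 that passed moved as follows. Low flow against sham gave 0 without low-flow pools a and b, a setting chosen after the data were seen that leaves 1 low-flow pool. With 1 library left out, PBS liposomes gave 4 to 4, anti-GPIba 0 to 1 and clodronate 0 to 3. DESeq2 gave 1 for anti-Gr1 and 2 for clodronate. Directions turned only in results that were not called. Without pools a and b, Psen2 against sham was 0.03. Atp6v0d2 with anti-GPIba was 0.09 with upper-quartile scaling, 0.02 with no filter and 0.02 in the 2-group fit. Fkbp7 with clodronate was 0.08, 0.02 and 0.03 in the same order. Leaving out 1 library gave, for high flow against sham, -0.18 to 0.09 for Fkbp7, -0.25 to 0.16 for Nipal2 and -1.50 to 0.43 for Serping1. For low against high flow of Psen2 it gave -0.05 to 0.69 with IgG and -0.07 to 0.37 with PBS liposomes. It gave -0.01 to 0.13 for Fkbp7 and -0.95 to 0.52 for Atp6v0d2 with anti-GPIba, -0.23 to 0.15 for Fkbp7 and -0.14 to 1.2 for Psen2 with clodronate, and -0.28 to 0.06 for Nipal2 and -0.34 to 0.24 for Clic5 in high-flow EC-KO. The cause of these shifts was not tested. The PBS liposome call of Fkbp7 was lost with upper-quartile scaling (0.66). Levels moved by more than 1 SD, or out of the exact Poisson 95% interval for groups of 1 library, in 37 of 184 cases with TMM library sizes and in 20 of 128 with the deposited RPKM. A second sequencing run of the untreated pools, planned as an alternative, was not used. The columns of the first run are also tied to their groups only, and which run had which read length is not settled.

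Counts over all genes were less stable. EC-KO against control under high flow called 1 gene, 13 with no filter, 110 with DESeq2 and 1 to 258 with 1 library left out. Anti-GPIba called 2216, DESeq2 3683, the 2-group fit 4449, and left-out libraries 1 to 89. Clodronate called 16, and 8 with upper-quartile scaling, 92 with no filter, 462 with DESeq2, 0 in the 2-group fit and 0 to 937 with left-out libraries. Anti-Gr1 called 0, DESeq2 142 and the 2-group fit 225, and high flow against sham called 0, 63 with no filter and 0 to 78 with left-out libraries. Left-out libraries gave 2513 to 4757 for low flow against sham, 2141 to 4231 for IgG and 1482 to 3839 for PBS liposomes, and without pools a and b low against high flow called 2731.

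With the replicate number as a block, 47 of 48 results kept their call and Psen2 with anti-GPIba was newly called (1.23), as it was with DESeq2 (1.16) and in the 2-group fit (1.19). Genes called were then 3307 for anti-GPIba, 95 for high-flow EC-KO and 64 for clodronate. The sources used here do not say whether low-flow and high-flow pools with the same number hold the same mice. The correlations of within-group differences ran from -0.15 to 0.44 over all pairs of groups, and for low and high flow were -0.02 with IgG and 0.38 with PBS liposomes, so pairing of these pools was left undecided and the unblocked fit was kept. For the untreated pools, whose columns carry letters instead of the labels' numbers, no replicate block was fitted. Depth limits Atp6v0d2 in untreated high-flow pools (1 to 16 counts), Clic5 in untreated low-flow pools (5 to 47) and Mal in the cell line (0 to 8).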
